A study of Homo sapiens with 6 samples.

Results

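The genes described here are 55 members of the PI3K, AKT and mTOR pathway, taken by name from a list of its kinases, subunits, phosphatases, substrates and regulators, out of 26255 genes in the expression table. All 55 were listed in the table. A filter on low values (0.1 FPKM or more in 3 or more libraries) left 53 of them among 16020 genes tested. FPKM is the number of fragments assigned to a gene, scaled to the length of its transcript and to the size of the library, so levels of different genes can be set side by side.

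The study compared human NCI-H1299 lung cancer cells, a line from a non-small cell lung carcinoma, that carried a control shRNA (shControl, 3 libraries) with the same cells carrying an shRNA against Ephexin1 (shEphexin1, 3 libraries). Ephexin1, encoded by NGEF, is a guanine nucleotide exchange factor, and the study asked how it acts with AKT and Ras in tumour cell growth. Both shRNAs were expressed from a U6 promoter on the plasmid that the labels call pSilencer2.1-U6-neo, in cells kept in RPMI-1640 medium with serum and selected for stable integration. Total RNA was sequenced from a stranded library, without a further drug or growth factor treatment in the labels. The names of the 3 shEphexin1 libraries share a stem, and nothing in the labels says that they came from separate clones or cultures, so the p-values below measure only the spread between these libraries, which may be technical. The difference between a single clone and its controls, and the effect of the shRNA, cannot be told apart in this design.

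Class I PI3K is recruited to activated receptors and Ras at the plasma membrane, where it makes the lipid PIP3. PIP3 brings AKT to the membrane to be phosphorylated by PDPK1 and by the mTOR complex 2, and AKT in turn phosphorylates GSK3, the FOXO factors and the TSC complex, which otherwise holds back RHEB and mTOR complex 1. mTOR complex 1 also reads amino acids through the Rag GTPases at the lysosome and energy through AMPK, and it drives translation through the S6 kinases. Most of this control is exerted by phosphorylation and location, which RNA levels do not show.

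NGEF itself measured 13.3, 11.7 and 16.4 FPKM with the control shRNA against 9.81, 8.25 and 10.5 FPKM with the Ephexin1 shRNA. The groups did not overlap, but the decrease to 68.9% of control missed the threshold (log2 fold change -0.53, SE 0.163, limma adjusted p = 0.103). The cells carried VIM at 1979 to 2670 FPKM and KRT18 at 36.3 to 109 FPKM. CDH1 and NKX2-1 were listed at 0 in all 6 libraries, which may be a failed estimate. The lung lineage markers NAPSA (0.0871 to 0.324 FPKM) and SFTPB (0.151 to 0.312 FPKM) were low. The summed endothelial markers were at 0.0803 to 0.111 FPKM in shControl against 0.0745 to 0.577 FPKM in shEphexin1. The high end was shEphexin1 1, with VWF at 0.280 and CDH5 at 0.276 FPKM. Of 5 leukocyte markers 3 were listed at 0 throughout, PTPRC and CD3E among them. The summed level of the list was 0.207 to 1.005 FPKM in shControl against 0.556 to 1.57 FPKM in shEphexin1. It was mostly LYZ except in shControl 2, where CD14 (0.125 FPKM) exceeded LYZ (0.0823 FPKM). Of 5 fibroblast markers COL1A2 and LUM were listed at 0 throughout, and the sum was 0.382 to 0.622 FPKM against 0.611 to 0.882 FPKM. COL1A1 and EPCAM were higher in shEphexin1 without overlap, at no more than 0.386 FPKM, and neither passed the test. The keratin genes KRT8 and KRT18 fell in the shEphexin1 libraries (limma adjusted p = 0.0304 and 0.0439). The part of these markers in the results below was not tested. Replicate 2 of each group stood apart from its group by base composition. The rank correlation, across genes, between a gene's GC content and its deviation from the group mean was -0.688 in shControl 2 and -0.759 in shEphexin1 2, against 0.335 to 0.665 in the other 4 libraries.

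Most of the pathway differed little between the groups. Of the 53 members tested, 46 (86.8%) differed by less than 0.5 on the log2(FPKM + 0.1) scale, against 77.9% of all genes tested. At an adjusted p of at most 0.05 (limma, Benjamini-Hochberg over all genes tested), 4 members fell in the shEphexin1 cells, namely DDIT4, DEPTOR, RPS6KB1 and PRKAG1, and 1 rose, PIK3CG. These 5 make 9.43% of the members tested, and the same test passed 7.01% of all genes. By direction, the background was 4.32% lower and 2.69% higher. With a fold change of at least 2 and an adjusted p of at most 0.025 required, DDIT4 alone was called, 1 of 53, or 1.89%, the same share as the 1.89% of all genes (0.893% higher and 0.999% lower). An unadjusted p of at most 0.05 was met by 10 members, 18.9%, where 23.3% of all genes met it.

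The counts changed when 1 library was left out, and so did the share of all genes that passed. Without shControl 1, shControl 3 or shEphexin1 1, limma passed 0 members. Without shEphexin1 3 only PIK3CG passed, and without shControl 2 PIK3CG, DDIT4 and PRKAG1 passed. Without shEphexin1 2 all 5 passed, and PIK3C3 fell as well. Over all genes, the share passing was 0.968% without shControl 1, 1.83% without shControl 3, 1.22% without shEphexin1 1, 1.92% without shEphexin1 3, 4.04% without shControl 2 and 8.2% without shEphexin1 2. With each library corrected for GC content and transcript length, 2 members passed upwards and 21 downwards, where 30.7% of all genes passed. The 5 members named above were among these 23, and PIK3R3 was the other member to pass upwards. Downwards, AKT1, AKT2, MAPKAP1, MLST8, RICTOR, RPTOR, PIK3CD, PIK3R2, PIK3C3 and PHLPP1 also passed. So did RPS6KB2, STK11, PRKAA1, LAMTOR1, LAMTOR2, RRAGA and RRAGD. Below, passing the test refers to the fit without this correction, unless stated.

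The groups did not overlap for 14 members (26.4%), against 28.3% of all genes tested. The libraries of shEphexin1 were all higher for PIK3CG, PIK3R3 and SGK1 (5.66%, against 12.8% of all genes) and all lower for 11 members (20.8%, against 15.4%). These 11 were DDIT4, DEPTOR, RPS6KB1, PRKAG1, LAMTOR2, PIK3C3, PHLPP1, RRAGA, RRAGD, PIK3C2B and MAPKAP1. In total 35 of 53 members had a log2 fold change below 0, where 51.1% of all genes did. The members' median log2 fold change was -0.11, and that of all genes was -0.0093. Between libraries of 1 group the members' median deviation had an SD of 0.0328 in shControl and 0.0672 in shEphexin1, and the difference of the medians was not tested.

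**Figure D1:**
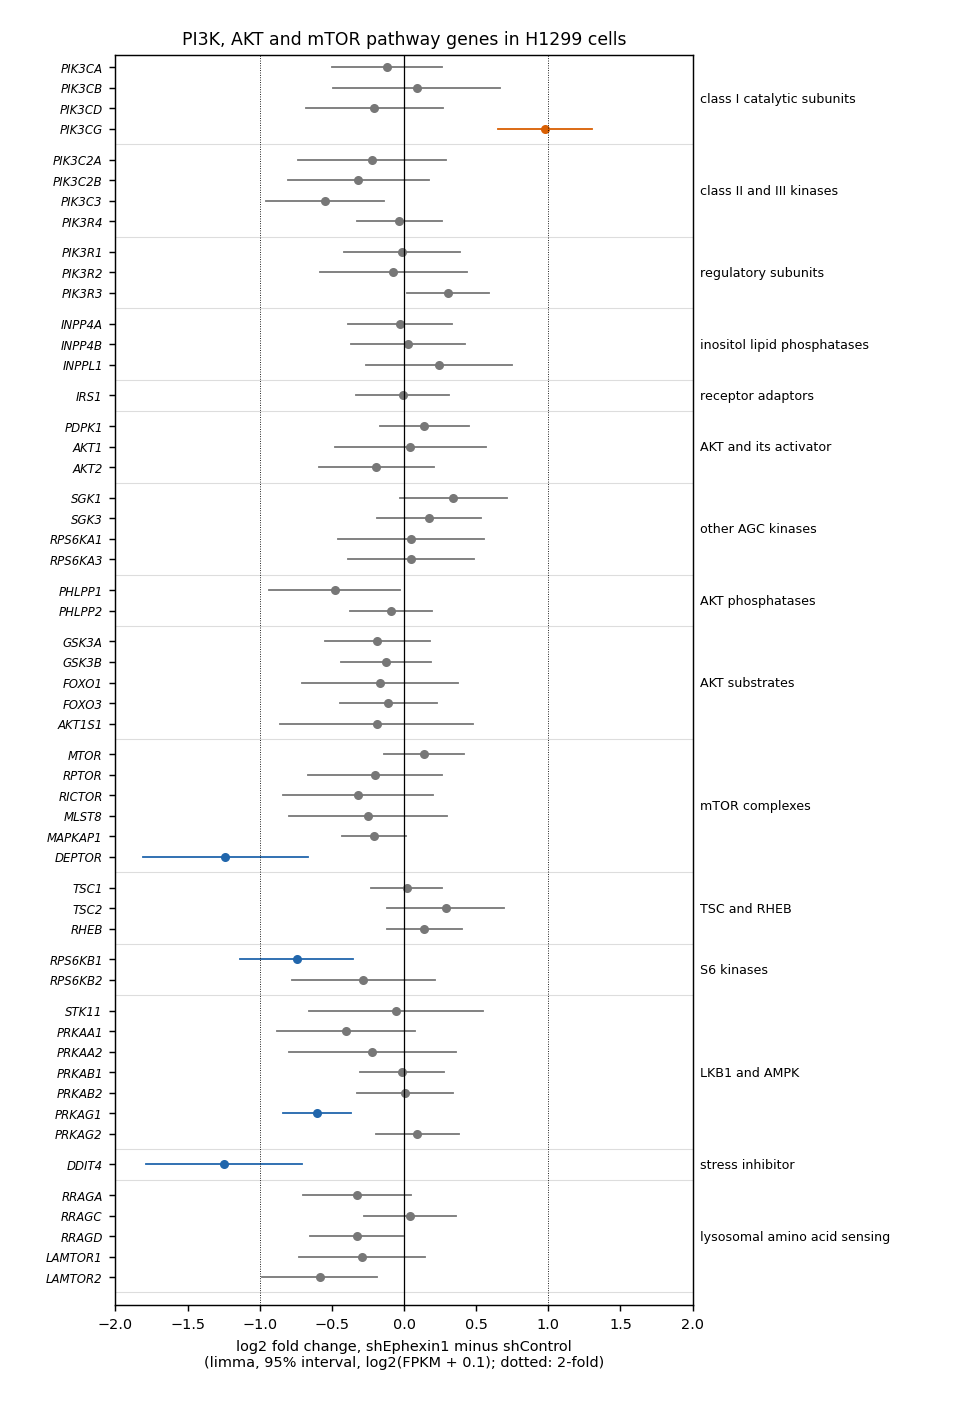
Log2 fold change (shEphexin1 minus shControl, log2(FPKM + 0.1), horizontal axis) of the 53 tested members grouped by role, with the limma 95% interval, and dotted lines at 2-fold. Most intervals cross 0, and the points of DDIT4 and DEPTOR lie beyond the 2-fold line on the lower side.

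At the top of the pathway, the class I catalytic subunits were PIK3CA (alpha), PIK3CB (beta), PIK3CD (delta) and PIK3CG (gamma). The gamma subunit is the form that G protein-coupled receptors activate, best known from leukocytes. PIK3CG was at 3.30, 3.31 and 2.84 FPKM in shControl against 6.42, 6.70 and 5.74 FPKM in shEphexin1. All 3 shEphexin1 libraries lay above all 3 shControl libraries, at 199.6% of the control mean, with a log2 fold change of 0.97 (SE 0.140, 95% interval 0.65 to 1.30, adjusted p = 0.0112). Leaving out 1 library kept the change at 0.90 to 1.04 but raised the adjusted p to at most 0.0754, above 0.05 without shControl 1, shControl 3 or shEphexin1 1. The ubiquitous alpha subunit PIK3CA was at 11.98, 14.1 and 11.1 FPKM in shControl against 10.4, 13.8 and 10.2 FPKM in shEphexin1, overlapping groups (log2 fold change -0.12, SE 0.163, adjusted p = 0.718). Neither PIK3CB, also widely expressed, nor PIK3CD, another subunit known from leukocytes, passed the test (0.09 and -0.21 on the log2 scale, both with overlapping groups).

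As a share of the summed FPKM of the 4 catalytic genes, PIK3CG went from 10.1% ± 0.947 (SD, n = 3) to 18.9% ± 1.24 (SD, n = 3). The shares were 10.8%, 9.05% and 10.6% in shControl and 20.2%, 17.7% and 18.9% in shEphexin1 (2-sided exact permutation p = 0.1, the smallest that 3 against 3 allows). The share of PIK3CA was 39.7% in shControl and 34.2% in shEphexin1 (exact permutation p = 0.1), and that of PIK3CB was 36.5% and 36.0% (exact permutation p = 0.9). The summed level of the 4 genes did not separate the groups, at 31.4 ± 4.90 FPKM in shControl against 33.3 ± 3.97 in shEphexin1 (SD, n = 3, exact permutation p = 0.6). PIK3CA and PIK3CB thus supplied most of the class I catalytic RNA in both groups.

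PIK3CG spans chromosome 7, 106505723 to 106549425, on the plus strand (GRCh37). Of 12 expressed genes lying within 1000000 bases of it, 11 were higher in shEphexin1, with a median log2 fold change of 0.49, and 4 passed the test (ATXN7L1, BCAP29, COG5 and SYPL1). Over the 407 expressed genes of the arm 7q 78.6% were higher, the median was 0.30, and PIK3CG was 0.68 above it. RHEB and PRKAG2 lie on the same arm. The part of the region in the change of PIK3CG was not tested.

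The regulatory subunits PIK3R1, PIK3R2 and PIK3R3 stabilise the alpha, beta and delta catalytic subunits and bind them to phosphorylated receptors. PIK3R5 and PIK3R6, other PI3K subunits outside the members, were listed at 0 in all 6 libraries, which may be failed estimates. PIK3R1 was at 5.16, 6.46 and 4.68 FPKM in shControl against 5.31, 6.09 and 4.68 FPKM in shEphexin1 (log2 fold change -0.015, SE 0.172, adjusted p = 0.975). PIK3R3 was at 7.53, 8.58 and 8.48 against 10.6, 10.5 and 9.33 FPKM. Its groups did not overlap, but the difference of 0.30 (SE 0.122) had an adjusted p of 0.191. PIK3R2 overlapped between the groups. Among the class II and III kinases, PIK3C3, the lipid kinase of autophagy and endosomal traffic, was at 14.6, 18.1 and 14.3 FPKM in shControl against 9.48, 13.3 and 9.54 FPKM in shEphexin1. The groups were apart, yet the log2 fold change of -0.55 (SE 0.174) missed the threshold with an adjusted p of 0.111. Its partner PIK3R4 differed by -0.03 on the log2 scale, PIK3C2A by -0.22 with overlapping groups, and PIK3C2B by -0.32 without overlap (0.709, 0.720 and 0.697 against 0.646, 0.516 and 0.496 FPKM, adjusted p = 0.421). PIK3C3 and the AKT phosphatase PHLPP1 both lie on 18q, where the median over 123 expressed genes was -0.44, and PHLPP1 differed by -0.48 (SE 0.195, adjusted p = 0.195). Its values were 3.73, 3.29 and 4.04 FPKM in shControl against 2.72, 2.04 and 3.16 FPKM in shEphexin1, again without overlap. Its relative PHLPP2 overlapped and differed by -0.09. The part of the arm in these differences was not tested.

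The phosphatases INPP4A, INPP4B and INPPL1, which take phosphates from the PI3K lipid products, did not pass the test. INPPL1 was at 23.1, 17.6 and 26.6 FPKM in shControl against 28.3, 20.0 and 31.6 FPKM in shEphexin1, overlapping groups with a log2 fold change of 0.24 (SE 0.215, adjusted p = 0.565). INPP5D was listed at 0 in 5 libraries and at 0.0199 FPKM in shControl 3. The adaptor IRS1, which links the insulin and IGF1 receptors to PI3K, was at 4.46 FPKM in shControl against 4.43 FPKM in shEphexin1 on average. IRS2 was listed at 0 in every library but shEphexin1 1, where it was at 0.0223 FPKM. An exact 0 in this table may be a failed estimate, so these entries say only how INPP5D and IRS2 were listed.

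At the AKT step, no gene passed the test before correction for GC content and length, and AKT1 and AKT2 passed after it. AKT1 was at 83.7, 60.7 and 98.2 FPKM in shControl against 90.1, 62.7 and 96.7 FPKM in shEphexin1. Replicate 2 was the lowest in both groups, the groups overlapped, and the log2 fold change was 0.04 (SE 0.223, 95% interval -0.48 to 0.57, adjusted p = 0.937). AKT1 is a GC-rich transcript (62.1% GC), and after correction for GC content and length its change was -0.26 with an adjusted p of 0.0131, so that its direction depended on that choice. AKT2 was at 71.1, 55.9 and 77.8 FPKM in shControl against 62.1, 49.0 and 67.9 FPKM in shEphexin1 (log2 fold change -0.19, SE 0.170, adjusted p = 0.560), and its corrected change was -0.34 with an adjusted p of 0.00160. Within each library, AKT2 made 45.9%, 48.0% and 44.2% of the summed AKT1 and AKT2 level in shControl and 40.8%, 43.9% and 41.3% in shEphexin1. These shares did not overlap (exact permutation p = 0.1, the smallest possible). PDPK1, which phosphorylates the activation loop of AKT, was at 9.19, 8.34 and 9.94 against 10.7, 9.06 and 10.6 FPKM (0.14 on the log2 scale, SE 0.131, adjusted p = 0.578). A near-identical copy of PDPK1 exists in the genome, so its level is uncertain.

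The related AGC kinases SGK1, SGK3, RPS6KA1 and RPS6KA3 had 0 members past the limma threshold, and also 0 at an unadjusted p of at most 0.05. SGK1, a kinase activated like AKT through mTOR complex 2, was at 7.64, 5.89 and 5.36 FPKM in shControl against 7.68, 7.83 and 8.24 FPKM in shEphexin1. The groups were separated by a narrow gap, and the difference of 0.34 (SE 0.158) had an adjusted p of 0.248. The AKT substrates GSK3A, GSK3B, FOXO1, FOXO3 and AKT1S1 all overlapped between the groups, with log2 fold changes of -0.19 to -0.11. GSK3B, which phosphorylates glycogen synthase and beta-catenin, was at 19.5, 21.4 and 16.7 against 17.5, 19.1 and 16.1 FPKM (log2 fold change -0.12, SE 0.133, adjusted p = 0.645). FOXO3, a transcription factor that AKT keeps out of the nucleus, was at 6.10, 7.52 and 5.996 against 6.54, 5.65 and 5.89 FPKM (log2 fold change -0.11, SE 0.143, adjusted p = 0.704).

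The kinase MTOR and most of its partners did not pass the test, while DEPTOR, a protein that binds MTOR and inhibits it, fell. MTOR was at 22.2, 20.5 and 23.1 FPKM in shControl against 24.8, 21.5 and 26.4 FPKM in shEphexin1, overlapping groups (log2 fold change 0.14, SE 0.119, 95% interval -0.14 to 0.42, adjusted p = 0.549). RPTOR, the scaffold of complex 1, was at 10.0, 8.39 and 11.6 against 9.68, 6.63 and 9.91 FPKM (log2 fold change -0.20, SE 0.199, adjusted p = 0.600). RICTOR, the scaffold of complex 2, was at 9.54, 12.8 and 8.08 against 7.46, 10.2 and 6.64 FPKM (log2 fold change -0.32, SE 0.222, adjusted p = 0.451). RPTOR is rich in GC and was lowest in replicate 2 of both groups, whereas RICTOR is poor in GC and was highest there. MLST8, a subunit of both complexes, overlapped (log2 fold change -0.25, adjusted p = 0.584). MAPKAP1, a subunit of complex 2, had the highest level of all members, at 132, 121 and 133 FPKM in shControl against 110.2, 106 and 116 FPKM in shEphexin1 (log2 fold change -0.21, adjusted p = 0.238). After correction for GC content and length, RPTOR (-0.40, adjusted p = 0.00309), MLST8 (-0.38, adjusted p = 0.0136), RICTOR (-0.26, adjusted p = 0.0371) and MAPKAP1 (-0.21, adjusted p = 0.0148) passed, and MTOR did not.

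DEPTOR had the lowest level of the members tested, at 0.502, 0.578 and 0.686 FPKM in shControl against 0.174, 0.189 and 0.208 FPKM in shEphexin1. The groups were well apart. The shEphexin1 mean was 32.3% of control, and the log2 fold change was -1.24 (SE 0.244, 95% interval -1.81 to -0.67, adjusted p = 0.0309). At such levels the pseudocount sets the size of the change, which was -0.41 with 1 FPKM added and -1.57 with 0.01 FPKM added, and the adjusted p exceeded 0.05 (up to 0.124) whichever library was left out, except shEphexin1 2 (0.0498). DEPTOR lies on chromosome 8, 120885957 to 121063157, plus strand (GRCh37), and an antisense gene, DEPTOR-AS1, overlaps it. The libraries were stranded, but whether strand was used in counting is not given in the sources used here. All 5 expressed neighbours within 1000000 bases were lower as well, 2 of them past the threshold (MRPL13 and SNTB1). Over all expressed 8q genes 20.9% were higher, and the median was -0.24. The part of these neighbours in the fall of DEPTOR was not tested.

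**Figure D2:**
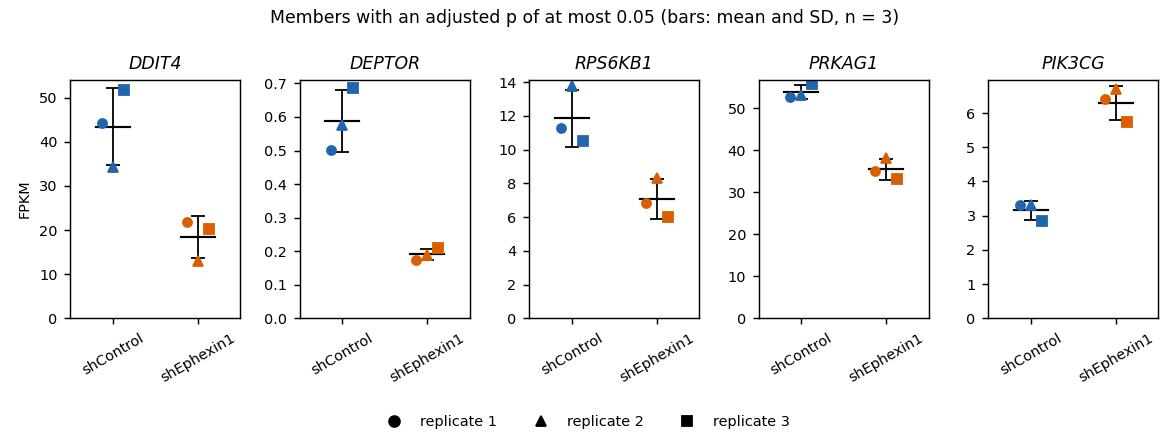
FPKM of DDIT4, DEPTOR, RPS6KB1, PRKAG1 and PIK3CG in each library (points), with the mean and SD of the 3 libraries per group (bars); each panel has its own linear axis from 0. In every panel the shControl and shEphexin1 points are apart, with PIK3CG higher and the other 4 lower in shEphexin1.

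DDIT4, also called REDD1, is a stress-induced inhibitor that acts through the TSC complex to restrain mTOR complex 1. It was at 44.3, 34.3 and 51.7 FPKM in shControl against 21.9, 13.03 and 20.3 FPKM in shEphexin1. Every shEphexin1 library was below every shControl library, the mean was 42.4% of control, and the log2 fold change of -1.25 (SE 0.231, 95% interval -1.79 to -0.71, adjusted p = 0.0245) was close to that of DEPTOR, and their order depended on the pseudocount. Replicate 2 was lowest in both groups, and within replicate 2 the difference was -1.39 against -1.18 in replicates 1 and 3 (adjusted p = 0.00287 there). Without shControl 1, shControl 3, shEphexin1 1 or shEphexin1 3 the adjusted p exceeded 0.05, up to 0.118, with log2 fold changes of -1.41 to -1.02 over the 6 such fits. DDIT4 lies on chromosome 10, 74033678 to 74035794, plus strand (GRCh37). Of 16 expressed neighbours, 12 were lower, 4 past the threshold, with a median of -0.37. Over all expressed 10q genes 16.7% were higher, the median was -0.30, and DDIT4 was 0.95 below it. The part of the arm in this fall was not tested.

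The TSC complex, the brake on RHEB that AKT and AMPK both phosphorylate, and RHEB itself did not pass the test. TSC1 was at 11.5, 12.3 and 12.2 FPKM in shControl against 11.9, 12.2 and 12.5 FPKM in shEphexin1 (log2 fold change 0.019, SE 0.105, adjusted p = 0.942). TSC2 was at 11.3, 9.36 and 11.5 against 13.9, 10.5 and 15.3 FPKM (log2 fold change 0.29, SE 0.173, adjusted p = 0.377), and this difference was -0.022 after correction for GC content and length. RHEB was at 56.1, 54.4 and 59.7 against 70.6, 58.5 and 59.1 FPKM (log2 fold change 0.14, SE 0.112, adjusted p = 0.514). Processed pseudogenes of RHEB exist, so its level is uncertain.

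The S6 kinases phosphorylate ribosomal protein S6 and other translation factors downstream of mTOR complex 1. RPS6KB1 was at 11.3, 13.8 and 10.5 FPKM in shControl against 6.82, 8.33 and 6.01 FPKM in shEphexin1. The highest shEphexin1 value stayed below the lowest shControl value. The mean was 59.5% of control, with a log2 fold change of -0.74 (SE 0.168, 95% interval -1.14 to -0.35, adjusted p = 0.0428). This call was near the threshold, and it held in 10 of 19 alternative fits. With no filter on low values and with eBayes without trend, the adjusted p exceeded 0.05. The adjusted p was 0.0598 with median centring and 0.0667 with quantile normalization, and in 5 of the 6 fits that left out 1 library it exceeded 0.05, reaching 0.165 without shEphexin1 1. RPS6KB2 was at 15.8 to 21.4 FPKM against 11.1 to 18.2 FPKM and overlapped. The summed S6 kinase level was 30.5 ± 1.27 FPKM in shControl against 22.6 ± 2.72 FPKM in shEphexin1 (SD, n = 3), without overlap (exact permutation p = 0.1, the smallest possible). Of this sum RPS6KB1 made 39.0% ± 6.94 in shControl and 31.9% ± 9.54 in shEphexin1 (SD, n = 3, exact permutation p = 0.4). RPS6KB1 spans chromosome 17, 57970407 to 58027935, plus strand (GRCh37), and a longer annotated gene overlaps it on the same strand. Of 18 expressed neighbours 17 were lower and 9 passed the test (CLTC, DHX40, HEATR6, PRR11, PTRH2, RNFT1, SKA2, SMG8 and TRIM37), with a median of -0.51. Over all expressed 17q genes 30.1% were higher, and the median was -0.21. The part of this region in the fall of RPS6KB1 was not tested.

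AMPK, the energy sensor that restrains mTOR complex 1, is built of an alpha, a beta and a gamma subunit and is activated by STK11 (LKB1). Its AMP-binding gamma subunit PRKAG1 fell, from 52.7, 53.1 and 55.7 FPKM in shControl to 34.95, 38.2 and 33.2 FPKM in shEphexin1. The spread within each group was small beside the gap, the mean was 65.9% of control, and the log2 fold change was -0.60 (SE 0.0998, 95% interval -0.84 to -0.37, adjusted p = 0.0180). Leaving out 1 library kept the change at -0.66 to -0.56, with an adjusted p of up to 0.109, above 0.05 without shControl 1, shControl 3, shEphexin1 1 or shEphexin1 3. Another gamma subunit, PRKAG2, overlapped (15.8, 17.0 and 14.8 against 17.4, 18.5 and 15.1 FPKM, adjusted p = 0.709). PRKAG3, a gamma subunit outside the members, was listed at 0 in all 6 libraries, which may be a failed estimate. PRKAG2 therefore made 22.8% ± 1.64 of the summed PRKAG1 and PRKAG2 level in shControl and 32.4% ± 1.03 in shEphexin1 (SD, n = 3, exact permutation p = 0.1). That sum was 69.8 ± 1.02 FPKM against 52.5 ± 4.18 FPKM (SD, n = 3, exact permutation p = 0.1). STK11, the catalytic genes PRKAA1 and PRKAA2 and the beta subunits PRKAB1 and PRKAB2 did not pass the test. PRKAA1 was at 26.4, 30.9 and 23.2 against 19.0, 26.9 and 16.1 FPKM (log2 fold change -0.40, adjusted p = 0.296), with overlapping groups, and it passed in replicates 1 and 3 alone (-0.50, adjusted p = 0.0338) and after correction for GC content and length (-0.32, adjusted p = 0.0129). STK11, the member richest in GC, went from -0.055 to -0.37 with that correction and passed (adjusted p = 0.00127). PRKAG1 lies on chromosome 12, 49396057 to 49412590, minus strand (GRCh37), where the antisense gene DDN-AS1 and a same-strand gene overlap it. Of 32 expressed neighbours 25 were lower and 2 passed the test. Over all expressed 12q genes 28.9% were higher, and the median was -0.17. The part of the region in the fall of PRKAG1 was not tested.

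**Figure D3:**
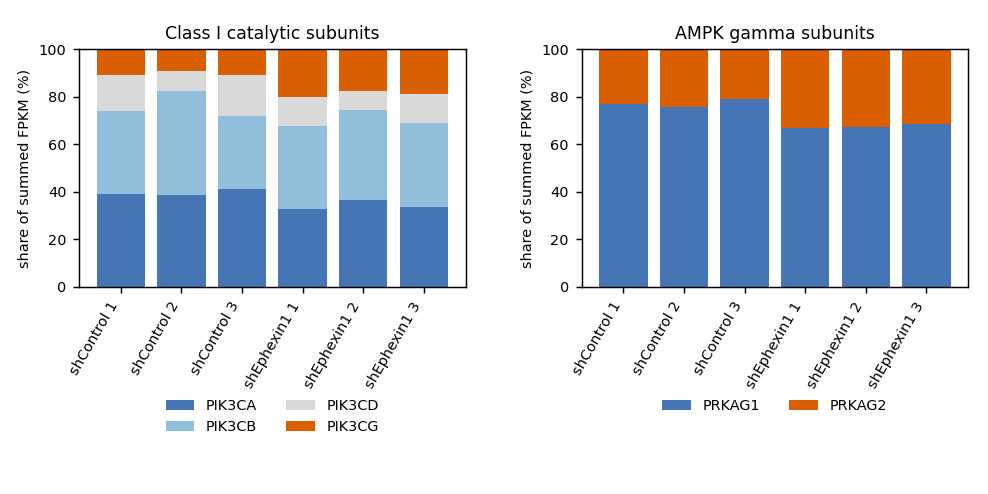
Share of the summed FPKM (percent, stacked to 100) of each class I catalytic gene and of the AMPK gamma genes PRKAG1 and PRKAG2 in the 6 libraries. The PIK3CG part is larger in every shEphexin1 library (17.7% to 20.2%) than in the shControl libraries (9.05% to 10.8%), and so is the PRKAG2 part (31.3% to 33.3% against 21.0% to 24.3%).

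The Rag GTPases and the LAMTOR (Ragulator) subunits hold mTOR complex 1 at the lysosome when amino acids are present. LAMTOR2 was at 36.2, 29.3 and 40.0 FPKM in shControl against 23.1, 19.6 and 27.7 FPKM in shEphexin1. The groups did not overlap, but the log2 fold change of -0.59 (SE 0.170, 95% interval -0.98 to -0.19) had an adjusted p of 0.0875. In replicates 1 and 3 alone LAMTOR2 passed the threshold. RRAGA was at 24.5, 24.5 and 28.1 FPKM in shControl against 23.5, 16.3 and 22.1 FPKM in shEphexin1 (log2 fold change -0.33, adjusted p = 0.273). RRAGD was at 11.6, 12.99 and 11.6 against 10.5, 10.1 and 8.19 FPKM (log2 fold change -0.33, adjusted p = 0.206). Neither overlapped between the groups, while RRAGC and LAMTOR1 did.

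The promoters of 4 of the 5 members that passed the test are shown as a description, and that of DEPTOR is not shown. Of these genes PIK3CG rose, while DDIT4, RPS6KB1 and PRKAG1 fell. The runs are the 250 bases before the RefSeq transcription start on GRCh38.p14, written 5′ to 3′ on the gene's strand. DDIT4 is chr10:72273674-72273923 (plus), RPS6KB1 chr17:59892871-59893120 (plus), PRKAG1 chr12:49018777-49019026 (minus) and PIK3CG chr7:106865229-106865478 (plus). Capitals mark matches on either strand to any of 4 motifs. The hypoxia response core was searched as ACGTG. The E-box, searched as CACGTG, contains that core. The cyclic AMP response half-site, which can share letters with the core, was searched as TGACG. The FOXO motif was searched as GTAAACA.
DDIT4: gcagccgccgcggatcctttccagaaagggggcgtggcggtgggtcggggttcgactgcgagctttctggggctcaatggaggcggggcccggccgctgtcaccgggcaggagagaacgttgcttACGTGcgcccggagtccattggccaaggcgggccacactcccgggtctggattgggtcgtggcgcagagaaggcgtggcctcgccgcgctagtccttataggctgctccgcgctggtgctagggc
RPS6KB1: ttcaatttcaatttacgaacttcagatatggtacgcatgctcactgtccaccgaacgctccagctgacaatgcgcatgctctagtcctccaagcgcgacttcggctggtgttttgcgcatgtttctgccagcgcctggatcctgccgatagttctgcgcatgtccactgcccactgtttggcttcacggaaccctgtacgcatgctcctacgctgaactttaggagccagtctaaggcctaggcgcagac
PRKAG1: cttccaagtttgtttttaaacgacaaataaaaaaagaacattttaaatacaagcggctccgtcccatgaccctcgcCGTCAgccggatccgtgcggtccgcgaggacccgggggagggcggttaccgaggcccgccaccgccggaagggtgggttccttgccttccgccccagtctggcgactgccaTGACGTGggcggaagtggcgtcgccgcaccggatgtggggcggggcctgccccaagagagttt
PIK3CG: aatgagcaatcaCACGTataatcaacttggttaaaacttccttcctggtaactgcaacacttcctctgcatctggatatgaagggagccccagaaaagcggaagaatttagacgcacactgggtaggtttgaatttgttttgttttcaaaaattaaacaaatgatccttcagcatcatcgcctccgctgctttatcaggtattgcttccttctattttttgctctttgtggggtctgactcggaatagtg

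The DDIT4 run held the hypoxia response core once, 121 bases before the start. In PRKAG1, the hypoxia response core (57 bases before the start) and the cyclic AMP response half-site (59 bases) overlapped in one stretch, and a further half-site lay on the other strand at 170 bases. PIK3CG held the hypoxia response core on the other strand at 234 bases, and RPS6KB1 held none of the 4 motifs in this window. Of 35116 promoter windows of this length, 18.5% held the hypoxia response core, 21.2% the cyclic AMP response half-site, 6.34% the E-box and 2.98% the FOXO motif, so a match was not rare. A match is a description of the letters only.

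The base composition of the members followed the split of replicate 2. Replicate 2 was the lowest library of both groups for 24 members, with a GC content of 48.0% to 66.3% (median 57.1%), and the highest of both groups for 16 members, with 35.2% to 46.6% (median 38.9%). Over the 53 members the Spearman correlation between GC content and the deviation of replicate 2 was -0.87 in shControl and -0.94 in shEphexin1. The points of one panel share a library, so this is a description. The effect of such a split on a single gene depends on its GC content.

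**Figure D4:**
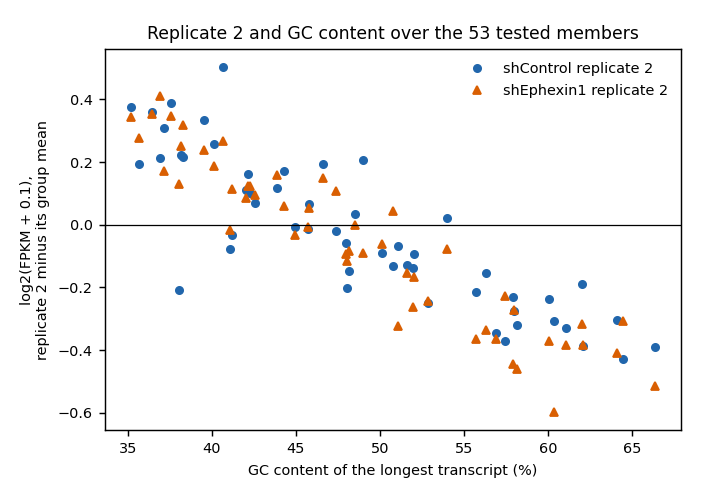
Deviation of replicate 2 from its group mean (log2(FPKM + 0.1), vertical axis) against the GC content of the longest transcript (percent, horizontal axis) for the 53 tested members, with 1 point per member and group. Most GC-rich members lie below 0 and most GC-poor members above 0 in both groups, with exceptions such as SGK1 (41.1% GC), below 0 in both.

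Outside the members, 95 further genes of the pathway were listed in the table and 83 were tested. At an adjusted p of at most 0.05, 3 rose and 5 fell, 9.64% in all against 7.01% of all genes tested. Their median log2 fold change was -0.04. INSR, the insulin receptor, was at 0.172, 0.0798 and 0.154 FPKM in shControl against 1.51, 1.32 and 1.48 FPKM in shEphexin1. It was low in all control libraries and clearly higher in all 3 others, with a log2 fold change of 2.73 (SE 0.251, adjusted p = 0.00231) that was 1.10 with a pseudocount of 1 FPKM. The other 2 genes that rose were SYNJ2, an inositol lipid phosphatase (0.65, adjusted p = 0.0152), and KLF6, a transcription factor listed among FOXO targets (0.56, adjusted p = 0.0354).

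TRIB3, a pseudokinase that binds AKT and is induced by stress, fell from 15.7, 12.9 and 16.9 FPKM to 6.83, 5.29 and 7.50 FPKM (log2 fold change -1.21, SE 0.173, adjusted p = 0.0112). RPS6, the ribosomal protein that the S6 kinases phosphorylate, fell from 1355, 1301 and 1357 FPKM to 682, 703 and 715 FPKM (log2 fold change -0.93, SE 0.0888, adjusted p = 0.00263). EIF4B, another S6 kinase substrate and a helper of translation initiation, fell from 264, 261 and 265 FPKM to 149.9, 155 and 149 FPKM (log2 fold change -0.80, SE 0.0842, adjusted p = 0.00380). Values for RPS6 and EIF4B varied little within a group, but both have processed pseudogenes, so their levels are uncertain. CDKN1B, a cell cycle inhibitor under FOXO control (-0.67, adjusted p = 0.0114), and SEH1L, a subunit of GATOR in amino acid signalling (-0.66, adjusted p = 0.0154), also fell. The median of expressed genes was -0.46 on 18p, where SEH1L lies, -0.43 on 12p (CDKN1B) and -0.29 on 20p (TRIB3), and the part of these arms was not tested. With 1 library left out INSR, RPS6 and EIF4B passed in all 6 fits. Without shControl 1, shControl 3 or shEphexin1 1, these 3 were the genes of the list that passed, 1 upwards and 2 downwards.

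**Figure D5:**
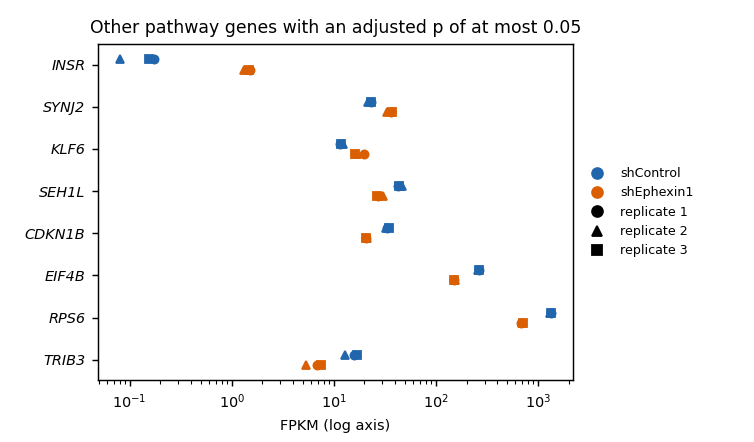
FPKM per library (points, log axis) of the 8 further pathway genes that passed the test at 0.05, by group. RPS6 has the highest level (682 to 1357 FPKM) and INSR the lowest (0.0798 to 1.51 FPKM), and in each row the shControl and shEphexin1 points are apart.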

How the data were processed

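RNA-seq of 6 NCI-H1299 libraries (3 shControl, 3 shEphexin1) was reported by the authors as FPKM per gene: reads were mapped to GRCh37/hg19 with TopHat 2.0.13, and Cuffdiff (Cufflinks 2.2.1) computed the deposited FPKM with geometric normalization and pooled dispersion. The gene annotation is not given in the sources used here. No counts were at hand and low values showed no whole-read steps, so the depth is unknown. Summed FPKM ranged from 516079 to 651441 per library.

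Genes at 0.1 FPKM or more in 3 or more libraries were fitted on log2(FPKM + 0.1) with limma 3.58.1 in R 4.3.3 (eBayes with trend), with Benjamini-Hochberg adjustment over 16020 genes. Fold changes on this scale understate those of low genes. Calls used an adjusted p of at most 0.025 with at least 2-fold, or of at most 0.05. Single values were compared with the 2-sided exact permutation test, whose smallest p here is 0.1. The fit was tested on simulated data. The members and lists were chosen with earlier results of these data known. Values in full were given for members with an adjusted p of at most 0.05, the 5 highest and 5 lowest fold changes and 14 core members; genes named beyond these were chosen after their values were seen. Coordinates are GRCh37 (GENCODE, 23759 of 26253 names matched), and promoters are RefSeq on GRCh38.p14. Arm medians used genes with a mean of at least 1 FPKM. Alternatives changed the pseudocount, filter, scaling, variance model, replicate block, batch term, GC and length correction and libraries.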

Additional observations from a re-analysis of the deposited data

How the results depend on the processing

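The 5 members past the threshold kept their direction in every alternative fitted, and INSR, RPS6 and EIF4B passed in 19 of 19. DEPTOR could not be fitted with the filter of 1 FPKM. With eBayes without trend, DEPTOR and not DDIT4 was the 1 member called at 2-fold. The number of members called at 2-fold was 0 with a pseudocount of 0.01 FPKM, with no filter and with robust eBayes. It was 2 with quantile normalization and with the term for replicate 2, and 3 with GC and length correction. Over all genes, that rule called 263 of 16020 with that pseudocount, 287 of 19290 without the filter and 304 of 16020 with robust eBayes. It called 309 of 16020 with quantile normalization and 564 of 16020 with the term for replicate 2. With GC and length correction it called 516 of 15204. Leaving out 1 library gave 0 to 1 called members, where 61 to 316 of all 16020 genes tested were called. It gave 0 to 1 members passing upwards and 0 to 5 downwards, and, of the further pathway genes, 1 to 3 passing upwards and 2 to 5 downwards. In replicates 1 and 3 alone, 6 further pathway genes rose and 10 fell, and NGEF passed (-0.54, adjusted p = 0.0338). With the term for replicate 2, 3 members (PIK3CG, PIK3R3 and TSC2) rose and 13 fell, and 9 and 19 further genes did so. NGEF had an adjusted p of 0.00572 at -0.53 with that term. With GC and length correction, 2 members rose and 21 fell, 10 and 18 further genes did so, and NGEF was at -0.61 (adjusted p = 0.000976). The larger counts came with larger shares of all genes (17.3%, 29.2% and 30.7%). Which of these models is the better one was not tested.

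The replicate numbers were not taken to pair the samples, since the correlation of same-numbered deviations was 0.091, 0.43 and 0.328. Each library correlated best with its own number, a hint from the data and not from the design. For shEphexin1 1 the margin was narrow, at 0.091 with shControl 1 and 0.089 with shControl 3. With a replicate block, 2 members were called at 2-fold, where 556 of 16020 genes were called. At an adjusted p of at most 0.05, 4 members rose and 16 fell, and 9 and 20 further genes did so. NGEF passed at -0.53 (adjusted p = 0.00284), while 33.5% of all genes passed. With the block and GC and length correction, 3 members were called at 2-fold, where 518 of 15204 genes were called. At an adjusted p of at most 0.05, 3 members rose and 22 fell, and 9 and 22 further genes did so. NGEF was at -0.61 (adjusted p = 0.000981), while 37.1% of all genes passed.

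The direction changed for members near 0. With 1 library left out, AKT1 ran from -0.15 to 0.24, PIK3R1 from -0.11 to 0.11 and TSC1 from -0.011 to 0.036. In replicates 1 and 3 alone, FOXO3 was 0.037 and PIK3R1 0.020. With GC and length correction, with or without the block, AKT1 was -0.26, MTOR -3.1e-05, PIK3R1 0.051, TSC1 -0.061 and TSC2 -0.022. The cause was not tested.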

Other observations

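Further genes of the pathway had groups that did not overlap without passing the test. They were chosen after their values were seen. IGF1R, the IGF1 receptor, was at 5.46, 5.21 and 5.26 FPKM in shControl against 7.31, 6.54 and 7.15 FPKM in shEphexin1 (log2 fold change 0.39, limma adjusted p = 0.101). GRB2, an adaptor that links receptors to Ras, was at 33.7, 28.6 and 36.4 FPKM against 23.5, 19.6 and 25.1 FPKM (-0.53, adjusted p = 0.0683). EIF4EBP2, a translation repressor that mTOR phosphorylates, was at 19.3, 21.0 and 18.5 FPKM against 15.4, 14.9 and 13.9 FPKM (-0.41, adjusted p = 0.0685). In all, the groups did not overlap for 30 of the 83 further genes tested (36.1%, against 28.3% of all genes), 10 higher and 20 lower. TXNIP, GRB10 and PRR5 were listed at 0 in all 6 libraries, which may be failed estimates.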
